A study of Mus musculus with 9 samples.

Results

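*Ackr3* and *Ackr4*, which encode a pair of atypical chemokine receptors, were 2 of the 8329 genes in the expression table. They were picked by gene name because their levels lay in opposite order in cells from bone marrow and from periosteum, the membrane that covers the outer surface of bone. The levels that chose them are the 9 FPKM values of each gene (fragments per gene, scaled to transcript length and to the library total), so the differences between the tissues are given here as a description and carry no test.

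The study sorted skeletal stem and stromal cells from femurs of WT C57BL/6J mice as CD45-Ter119-CD31-CD51+CD200+ cells and sequenced their poly-A RNA. BM-MSCs are mesenchymal stem cells from bone marrow at day 0, P-SSCs are skeletal stem cells from periosteum at day 0, and graft P-SSCs came from the periosteum of a femur at day 3 after it had been transplanted under the skin of another mouse. Each group had 3 libraries, and the labels mark replicate 2 of the BM-MSCs and of the P-SSCs as pools of mice. Donors and recipients were not separated by genotype in the labels, and no BM-MSC library from a graft was analysed here, so only the periosteal cells can be compared before and after transplantation.

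Atypical chemokine receptors have the helical fold of the signalling chemokine receptors but do not signal through G proteins. They bind chemokines, recruit arrestins and carry the ligand into the cell, where it is broken down, and in this way they shape chemokine gradients. ACKR3 takes up CXCL12 and CXCL11. CXCL12 is made in large amounts by marrow stromal cells and holds haematopoietic stem cells in the marrow through its signalling receptor CXCR4. ACKR4 takes up CCL19, CCL21 and CCL25, the ligands of the signalling receptors CCR7 and CCR9, and is known from lymphatic and stromal cells.

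Signalling receptors carry the residues Asp-Arg-Tyr at the inner end of the third helix, followed by a stretch that contacts the G protein. The coding sequences of the 2 receptors over this place are shown beside those of 4 signalling receptors that share ligands with them, because it is where the atypical and the signalling receptors are usually compared. Each run holds 7 codons, 5′ to 3′, from the longest reading frame of the GENCODE vM21 transcript, with the 3 codons for Asp-Arg-Tyr in capitals.
Ackr3: GACCGCTATctctccatcacc
Ackr4: GACAGATATtgggcaattacc
Cxcr4: GACCGGTACctcgctattgtc
Cxcr3: GACAGATATctgagcatagtg
Ccr7: GACCGCTACgtagccatcgtc
Ccr9: GACAGATACattgccattgta
In GRCm38 the *Ackr3* run lies at chr1:90214241-90214261 on the plus strand and starts at codon 141 of 362. The *Ackr4* run lies at chr9:104099321-104099341 on the minus strand and starts at codon 136 of 350. All 6 receptors encoded Asp-Arg-Tyr here, though the codons used for Arg and Tyr differed between them. Of the 7 codons, 5 encoded the same residue as in *Cxcr4* for *Ackr3* and likewise for *Ackr4*, against 6 for each of *Cxcr3*, *Ccr7* and *Ccr9*. Of the 12 bases after the capitals, *Ackr3* and *Ackr4* had 6 in common.

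*Ackr3* (ENSMUSG00000044337) spans chr1:90203980-90216751 on the plus strand. Its longest transcript has 3065 bases in 2 exons, and the whole reading frame lies in exon 2. *Ackr4* (ENSMUSG00000079355) spans chr9:104084157-104126933 on the minus strand. Its longest coding transcript has 2389 bases in 3 exons, with the reading frame in exon 3. *Ackr4* lies within *Acad11*, a gene on the opposite strand that was not analysed here, and 479 of its 5380 exon bases (8.90%) are shared with it. The labels name a directional and a non-directional library kit without saying which was used, so reads from the 2 genes over these bases may not have been told apart.

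The 9 libraries held between 16890241 and 21315438 fragments, and between 2231 and 2829 of the genes in the table were above 0 in a library. P-SSC replicate 3 stood apart. Its Pearson r over the 1948 genes tested was 0.858 and 0.870 with the other P-SSC libraries, which had an r of 0.960 with each other, and reached 0.839 with a graft P-SSC library. The r within a group was 0.945 to 0.956 for BM-MSCs and 0.982 to 0.992 for graft P-SSCs. Of the listed marrow stroma markers only *Trf*, which encodes the iron carrier transferrin, was measured, and it was at 135 to 195 FPKM in BM-MSCs and at 1.18 to 4.45 in the other 6 libraries. The 3 measured periosteum markers of 10 summed to 1016 to 1150 FPKM in P-SSCs, 974 to 1099 in graft P-SSCs and 164 to 267 in BM-MSCs. *Postn* carried the graft sum, with 782 to 879 FPKM, and *Ogn* was at 63.6 to 86.6 FPKM in graft P-SSCs, overlapping its 73.0 to 142 in BM-MSCs. The 4 measured haematopoietic markers of 12 summed to 438 to 610 FPKM in BM-MSCs, 14.5 to 72.3 in P-SSCs and 32.5 to 91.3 in graft P-SSCs. The gate removed CD45+ cells, and *Ptprc*, which encodes CD45, was at 0 in the 3 P-SSC libraries and at most 1.35 FPKM elsewhere.

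*Ackr3* was at 1317, 1244 and 812 FPKM in the 3 P-SSC libraries. In graft P-SSCs it was at 344, 319.8 and 366 FPKM, and in BM-MSCs at 18.6, 6.01 and 0.980 FPKM. No P-SSC library reached down to a graft library and no graft library to a marrow library, so the order was P-SSC, graft P-SSC, BM-MSC, with a gap between each pair of neighbours. The means were 1124 ± 273 FPKM (SD, n = 3) in P-SSCs, 343 ± 23.1 in graft P-SSCs and 8.53 ± 9.08 in BM-MSCs. The P-SSC mean was 132 times the BM-MSC mean, and even the closest libraries of these 2 groups were 43.6-fold apart. Without BM-MSC replicate 1, the library with the most *Ackr3* in its group, the ratio was 322. Without BM-MSC replicate 3, the library with the least, it was 91.4. In these bulk libraries, fewer cells that express a gene and less RNA of it per cell cannot be told apart.

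*Ackr4* ran the other way between the tissues. It was at 515, 433 and 396 FPKM in BM-MSCs. In P-SSCs it was at 12.1, 24.5 and 15.0 FPKM, and in graft P-SSCs at 0.555, 0.105 and 0.0745 FPKM. Its order was BM-MSC, P-SSC, graft P-SSC, and here too no groups overlapped. The means were 448 ± 60.8 FPKM (SD, n = 3) in BM-MSCs, 17.2 ± 6.48 in P-SSCs and 0.245 ± 0.269 in graft P-SSCs. The BM-MSC mean was 26.1 times the P-SSC mean, and the closest libraries of these groups were 16.2-fold apart.

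**Figure D1:**
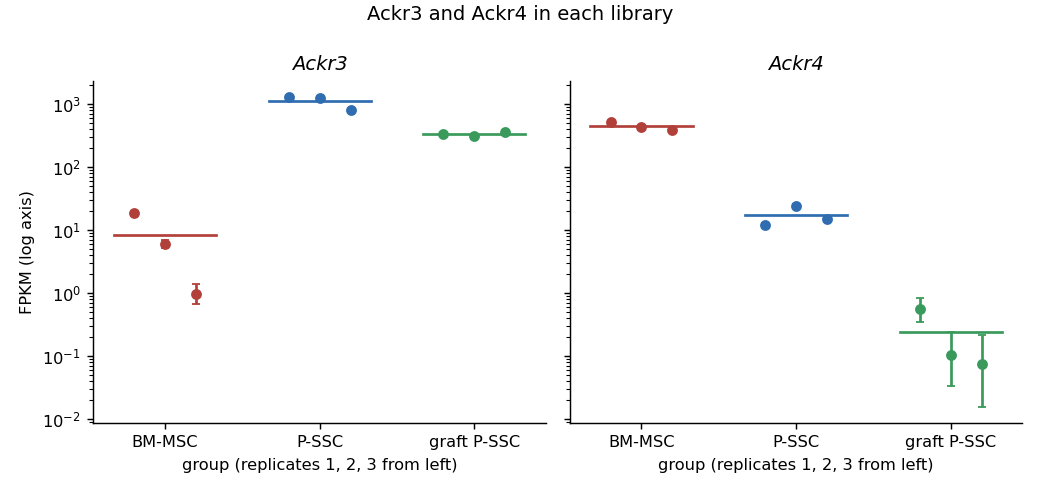
FPKM of Ackr3 (left) and Ackr4 (right) on a log axis for the 3 libraries of each group. Points are libraries with 95% exact Poisson intervals for counting error only, and short lines are group means; Ackr3 stood highest in P-SSCs (812 to 1317 FPKM) and Ackr4 in BM-MSCs (396 to 515 FPKM).

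On the scale of log2(FPKM + 1), used for all differences here, *Ackr3* was 7.41 higher in P-SSCs than in BM-MSCs and 5.73 higher in graft P-SSCs than in BM-MSCs. *Ackr4* was at -4.68 in P-SSCs minus BM-MSCs and at -8.51 in graft P-SSCs minus BM-MSCs. In P-SSCs against BM-MSCs the libraries of 32.1% of all genes tested did not overlap, and in graft P-SSCs against BM-MSCs those of 64.5% did not. The choice of the members rests on these 2 contrasts, so nothing more is read from them.

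**Figure D2:**
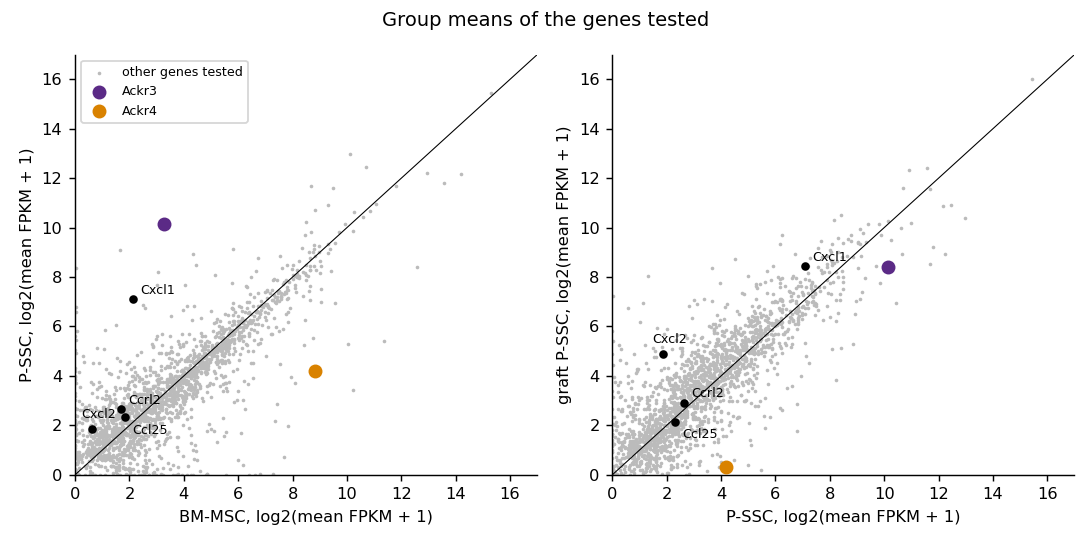
Group means as log2(mean FPKM + 1), P-SSC against BM-MSC (left) and graft P-SSC against P-SSC (right); each grey point is 1 of the 1948 genes tested, the line marks equal means, coloured points are Ackr3 and Ackr4, and black points are other named chemokine genes. Ackr3 lies above the line on the left and Ackr4 below it, and both lie below it on the right.

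The counts behind these values differed widely. The authors' FPKM of both genes corresponded to whole fragments, so the fragments could be recovered. *Ackr3* had 26753 to 45119 fragments in the P-SSC libraries and 10543 to 11819 in the graft libraries. In BM-MSCs it had 545, 196 and 31 fragments. *Ackr4* had 16195 to 19486 fragments in BM-MSCs and 535 to 974 in P-SSCs. In the graft libraries it had 22, 5 and 3 fragments, which set exact Poisson 95% intervals of 0.348 to 0.840, 0.0340 to 0.244 and 0.0154 to 0.218 FPKM. These intervals cover counting error only, since reads carried no molecular identifiers. The low end of *Ackr4* was thus read from 30 fragments in all, while the low end of *Ackr3* was read from 772.

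Relative to the mean, the spread between replicates was widest where each gene was lowest. For *Ackr3* the coefficient of variation was 106% in BM-MSCs, 24.3% in P-SSCs and 6.72% in graft P-SSCs. The highest BM-MSC library held 19.0 times the FPKM of the lowest one. For *Ackr4* the coefficient was 13.6% in BM-MSCs, 37.8% in P-SSCs and 110% in graft P-SSCs, where the highest library held 7.45 times the lowest. On the log2 scale the SD of *Ackr4* was instead widest in P-SSCs, at 0.49, against 0.19 in BM-MSCs and 0.30 in graft P-SSCs. In the tissue where each gene was high, the highest library was 1.62 times the lowest for *Ackr3* in P-SSCs and 1.30 times for *Ackr4* in BM-MSCs.

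Markers of blood cells also varied among the BM-MSC libraries. In BM-MSC replicates 1, 2 and 3, where *Ackr3* was at 18.6, 6.01 and 0.980 FPKM, *Lyz2* (lysozyme of myeloid cells) was at 143, 539.5 and 608 FPKM. *Hba-a2* (an alpha globin of red cells) was at 748, 618 and 2201 FPKM in the same libraries, and at most 20.2 FPKM in the other 6. *Mpo* (myeloperoxidase of granulocyte precursors) was at 292 FPKM in replicate 1 and at 0 in the other 2. *Ackr4*, at 515, 433 and 396 FPKM, changed far less across these 3 libraries. The part of these cells in the levels of either receptor was not tested.

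The next question was whether the receptors changed in periosteal cells after transplantation. The choice of the members rested on the split by tissue and not on this contrast, but the contrast is the difference of the 2 tissue contrasts and uses the same periosteal libraries. Its p-values are therefore not independent of that choice. Over all genes tested, 34.1% were called in graft P-SSCs against P-SSCs (limma, Benjamini-Hochberg adjusted p under 0.05), 22.6% as higher and 11.5% as lower, and the libraries of 50.6% did not overlap. *Ackr4* fell by 3.83 ± 0.29 (SE) on the log2 scale, with a 95% interval of -4.47 to -3.19 (limma adjusted p = 1.45e-05). Without a pseudocount, the ratio of the means was 70.2, and the ratio of the pooled fragment rates was 72.1, with a counting interval of 50.3 to 107. Graft replicate 1 held 22 of the 30 graft fragments, and without it the ratio of the means was 192. Without graft replicate 3 the ratio was 52.1, the lowest with 1 library left out.

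*Ackr3* was also lower in all 3 graft libraries than in any P-SSC library, and the P-SSC mean was 3.28 times the graft mean. Its difference of -1.68 ± 0.65 (SE), with a 95% interval of -3.13 to -0.23, did not pass the threshold (limma adjusted p = 0.0735). The fit of all 9 libraries shares 1 estimate of the spread per gene, and on the log2 scale the SD of *Ackr3* was 1.66 in BM-MSCs, 0.38 in P-SSCs and 0.10 in graft P-SSCs. When only the 6 periosteal libraries were fitted, the difference was the same and the limma adjusted p was 0.00231. It was 0.0483 without P-SSC replicate 3, the library that stood apart, with a difference of -1.90. The adjusted p of the same limma fit was 0.0163 without BM-MSC replicate 1 and 0.00824 without BM-MSC replicate 3, and it was under the threshold in 6 of 17 alternatives in all. *Ackr4* without P-SSC replicate 3 had a difference of -3.90 (limma adjusted p = 7.27e-06) and passed the threshold in all 17 alternatives. An exact two-sided permutation test of 3 against 3 libraries gave p = 0.1 for each gene, the smallest that 20 splits allow.

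Among the blood cell markers, *Csf1r*, the macrophage colony-stimulating factor receptor, was at 0.248, 0.407 and 0.835 FPKM in P-SSCs and at 6.31, 5.93 and 5.57 FPKM in graft P-SSCs. It was higher by 2.23 in graft P-SSCs (limma adjusted p = 0.00431) and passed in all 16 alternatives run for it. In BM-MSCs it was at 2.68, 0.223 and 0 FPKM. *Lyz2* overlapped between the 2 periosteal groups, at 14.2, 71.9 and 51.4 FPKM in P-SSCs and 49.4, 25.5 and 84.0 FPKM in graft P-SSCs. *Mpo* and *Ptprc* were at 0 in the 3 P-SSC libraries and above 0 in each graft library, with *Mpo* at 1.09, 0.975 and 1.59 FPKM (limma adjusted p = 0.659) and *Ptprc*, which was not tested, at 0.311, 0.113 and 0.134 FPKM. Of the other genes of blood cells named here, *Cybb* was at 0 in P-SSCs and at 0.952, 0.316 and 1.35 FPKM in graft P-SSCs. *Stxbp2* was at 0 and at 1.62, 1.23 and 1.74 FPKM, and *Nfe2* at 0 and at 0.240, 0 and 0 FPKM. *Hba-a2* was at 2.13, 7.09 and 20.2 FPKM in P-SSCs and at 3.67, 2.78 and 0.531 FPKM in graft P-SSCs. Its difference of -1.44 did not pass the threshold (limma adjusted p = 0.159). *Csf1r*, *Mpo*, *Ptprc*, *Cybb* and *Stxbp2* were thus higher in every graft library than in any P-SSC library. *Lyz2*, *Nfe2* and *Hba-a2* overlapped between the groups. The libraries of 50.6% of all genes tested did not overlap in this comparison. *Csf1r* and the other cell type markers are from the marker lists, outside the rule for named genes, and were named after their values were seen. The part of blood cells in the lower *Ackr3* and *Ackr4* of the graft was not tested.

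**Figure D3:**
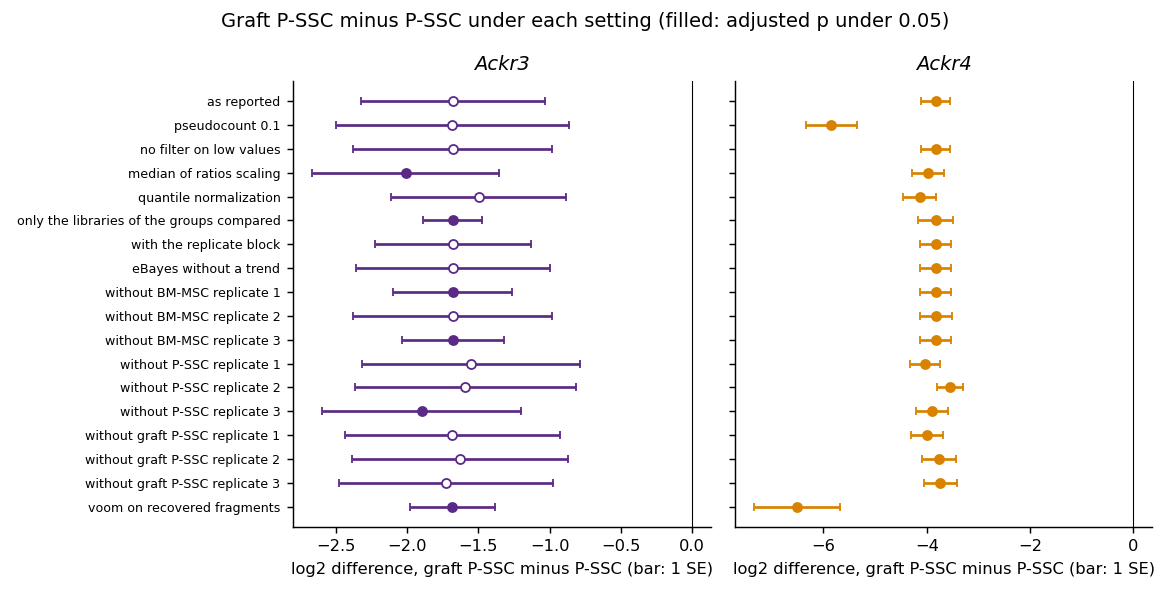
Difference between graft P-SSCs and P-SSCs on the log2 scale for Ackr3 (left) and Ackr4 (right), as reported and under each alternative setting, with bars of 1 SE; filled points have a limma adjusted p under 0.05. Every value is below 0 for both genes, and the points are filled in 6 of 17 alternatives for Ackr3 and in all 17 for Ackr4.

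The median difference of all genes tested between graft P-SSCs and P-SSCs was 0.26. Relative to it, *Ackr3* was at -1.94 and *Ackr4* at -4.09. Scaling the libraries by the median of ratios gave -2.01 for *Ackr3* (limma adjusted p = 0.0418) and -3.97 for *Ackr4* (limma adjusted p = 2.36e-05).

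Since FPKM are per length, the levels of the 2 receptors can be set side by side within a library. In BM-MSCs the FPKM of *Ackr4* was 27.7, 72.1 and 404 times that of *Ackr3*. In P-SSCs the FPKM of *Ackr3* was 109, 50.9 and 54.3 times that of *Ackr4*, and in graft P-SSCs it was 619, 3055 and 4909 times. The order of the 2 genes by tissue is what chose them and is no result. The log2 ratio of *Ackr3* to *Ackr4*, with 1 added to each FPKM, was 5.61 to 6.65 in P-SSCs and 7.79 to 8.42 in graft P-SSCs. The groups did not overlap, and the mean ratio was 2.15 higher in graft P-SSCs (exact permutation test, two-sided p = 0.1, the smallest possible). With 0.1 added in place of 1, the increase was 4.17, since *Ackr4* in the graft lay below 1 FPKM.

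The length that the authors divided by matters for this comparison. It was the mean over the annotated transcripts, 1734 bases for *Ackr3*, whose transcripts have 3065 and 404 bases, and 2241 bases for *Ackr4*. Per length of the longest coding transcript, *Ackr3* was 65.7, 30.7 and 32.7 times *Ackr4* in P-SSCs and 374, 1842 and 2961 times in graft P-SSCs. In BM-MSCs *Ackr4* was then 45.9, 119 and 670.2 times *Ackr3*. The order of the 2 genes was the same with either length.

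Each receptor was then set beside a marker of the tissue in which it was high. In BM-MSCs the ratio of *Ackr4* to *Trf* was 2.64, 2.69 and 2.94. It was 3.13, 5.50 and 6.51 in P-SSCs, and 0.220, 0.0889 and 0.0343 in graft P-SSCs. *Ackr4* thus stood somewhat higher relative to *Trf* in P-SSCs than in BM-MSCs and below *Trf* in each graft library. *Trf* itself had a difference of -0.61 between graft P-SSCs and P-SSCs (limma adjusted p = 0.144), which was -0.83 and passed without P-SSC replicate 3 (limma adjusted p = 0.0332).

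*Cilp*, which encodes a matrix protein of cartilage and periosteum, was at 263 to 381 FPKM in P-SSCs, 122 to 157 in graft P-SSCs and 0.0257 to 0.0397 in BM-MSCs. The ratio of *Ackr3* to *Cilp* was 3.75, 4.74 and 2.13 in P-SSCs and 2.82, 2.56 and 2.34 in graft P-SSCs, and these ranges overlapped. The ratio of *Ackr3* to *Ogn* (osteoglycin, a small proteoglycan) was 3.79, 4.50 and 2.88 in P-SSCs and 4.92, 3.69 and 5.75 in graft P-SSCs, which overlapped too. The ratio of *Ackr3* to *Postn* (periostin, a matrix protein of periosteum) was 2.92, 2.61 and 2.08 in P-SSCs and 0.440, 0.386 and 0.416 in graft P-SSCs, with no overlap. The result thus depended on the marker. *Postn* was at 391 to 476 FPKM in P-SSCs and at 782 to 879 in graft P-SSCs. *Ogn* was at 277 to 347 FPKM in P-SSCs and 63.6 to 86.6 in graft P-SSCs. *Postn* was called higher in the graft (difference of 0.92, limma adjusted p = 0.00156), while *Cilp* (-1.29, limma adjusted p = 0.000974) and *Ogn* (-2.03, limma adjusted p = 0.000273) were called lower. The call of *Postn* was lost with median of ratios scaling (0.59, limma adjusted p = 0.0536). The lymphatic marker *Mmrn1* was at 0 in all libraries.

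**Figure D4:**
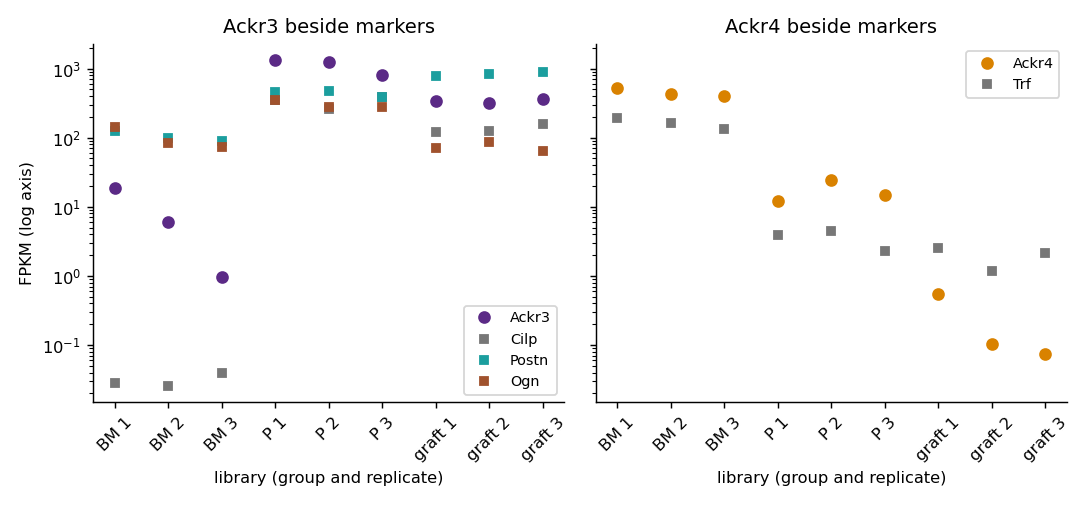
FPKM on a log axis in each of the 9 libraries for Ackr3 beside the periosteum markers Cilp, Postn and Ogn (left) and Ackr4 beside the marrow stroma marker Trf (right). Ackr4 lies above Trf in the BM-MSC and P-SSC libraries and below it in the 3 graft libraries.

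The table held few other genes of the chemokine system. Of 128 listed genes other than the 2 receptors (other atypical receptors, ligands, signalling receptors, other chemokines, coupling and trafficking factors and other scavenger receptors), 12 were measured and 8 passed the filter. *Cxcl12*, *Cxcr4*, *Ccl19*, *Ccr7*, *Ackr1* and *Ackr2* were not analysed here. In graft P-SSCs against P-SSCs, 3 of the 8 were called (37.5%, beside 34.1% of all genes tested), with a median difference of 0.37 beside 0.26. In P-SSCs against BM-MSCs, 3 of 8 were called, all higher, beside 24.2% of all genes (9.8% higher and 14.4% lower). In graft P-SSCs against BM-MSCs, 3 were called higher and 1 lower, beside 41.9% of all genes (25.7% higher and 16.2% lower).

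*Ccl25*, the only ligand of either receptor that was measured and one that ACKR4 takes up, was low throughout. It was at 5.99, 0.809 and 0.883 FPKM in BM-MSCs, 3.94, 4.99 and 3.06 in P-SSCs and 2.43, 4.12 and 3.59 in graft P-SSCs. The groups overlapped, and its difference of -0.19 between graft P-SSCs and P-SSCs did not pass the threshold (limma adjusted p = 0.800). Without BM-MSC replicate 1, *Ccl25* was 1.42 higher in P-SSCs than in BM-MSCs (limma adjusted p = 0.0180) and 1.23 higher in graft P-SSCs (limma adjusted p = 0.0228), while neither passed with all libraries (0.322 and 0.367). *Ccrl2*, a chemerin-binding relative of the atypical receptors, had means of 2.21, 5.25 and 6.56 FPKM in BM-MSCs, P-SSCs and graft P-SSCs and was not called in any comparison with all libraries (limma adjusted p = 0.215 for P-SSCs against BM-MSCs, 0.0544 for graft P-SSCs against BM-MSCs and 0.585 for graft P-SSCs against P-SSCs). Without P-SSC replicate 3 it passed in the first 2 of these (limma adjusted p = 0.0305 and 0.0141). In the second it also passed without BM-MSC replicate 2 (limma adjusted p = 0.0483) and with only the libraries of the groups compared (limma adjusted p = 0.0251).

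The chemokines called were *Cxcl1* and *Cxcl2*, which attract neutrophils through CXCR2 and are not known as ligands of ACKR3 or ACKR4. *Cxcl1* was at 2.98, 3.16 and 3.92 FPKM in BM-MSCs, at 209, 137 and 60.8 in P-SSCs and at 379.8, 337 and 321 in graft P-SSCs. The groups did not overlap, and *Cxcl1* rose by 1.51 from P-SSCs to graft P-SSCs (limma adjusted p = 0.0114) and was 4.81 higher in P-SSCs than in BM-MSCs (limma adjusted p = 1.44e-05). With median of ratios scaling the first difference was 1.18 and missed the threshold (limma adjusted p = 0.0525). *Cxcl2* rose from 2.02 to 3.39 FPKM in P-SSCs to 20.9 to 34.8 in graft P-SSCs, a difference of 3.01 (limma adjusted p = 0.000240). It was 1.29 higher in P-SSCs than in BM-MSCs (limma adjusted p = 0.0262), a call lost in 7 of 17 alternatives, among them those without BM-MSC replicate 1 or 2, P-SSC replicate 1 or graft P-SSC replicate 2. From P-SSCs to graft P-SSCs the mean of *Ackr3* was lower and that of *Cxcl1* higher.

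Among genes for receptor trafficking, *Rab4a*, a GTPase of recycling endosomes, had means of 1.37, 16.5 and 11.8 FPKM in BM-MSCs, P-SSCs and graft P-SSCs. It was 2.87 higher in P-SSCs than in BM-MSCs (limma adjusted p = 7.08e-05). *Egfr*, the receptor of epidermal growth factor, with which ACKR3 has been described to associate, had means of 69.9, 97.6 and 46.5 FPKM. It fell by 1.04 from P-SSCs to graft P-SSCs (limma adjusted p = 0.00218). It was also the gene called lower in graft P-SSCs than in BM-MSCs (-0.57, limma adjusted p = 0.0337), a call lost in 6 of 17 alternatives, among them those without BM-MSC replicate 1 or 2 or any 1 graft P-SSC library (limma adjusted p = 0.0653 to 0.120). *Gng2* and *Cd36*, the other 2 genes tested, were not called in any comparison with all libraries, but *Gng2* was called between graft P-SSCs and P-SSCs without P-SSC replicate 3 (1.75, limma adjusted p = 0.00651) and *Cd36* between graft P-SSCs and BM-MSCs without BM-MSC replicate 1 (1.14, limma adjusted p = 0.0391). They lie outside the rule for named genes and were named after their values were seen.

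The profiles of the 2 receptors over the 9 libraries had a Pearson r of -0.742. The 9 points fall into 3 groups of 3, so an r over them mostly describes the order of the groups, and no p is given. Among the 1141 tested genes whose mean reached 10 FPKM in any group, *Ackr3* was most like *Thbs3* (r = 0.993), a thrombospondin of the matrix, *Adk* (0.978), adenosine kinase, *Pla2g4a* (0.971), a phospholipase that releases arachidonic acid, and *Cilp* (0.965). *Thbs3* had means of 21.0, 359 and 184 FPKM in BM-MSCs, P-SSCs and graft P-SSCs. The lowest r with *Ackr3* were those of *Cybb* (-0.981), the oxidase subunit of phagocytes, *Stxbp2* (-0.980), a factor for granule release in blood cells, and *Nfe2* (-0.977), a transcription factor of red cells and megakaryocytes. *Cybb* was at 31.7, 25.8 and 79.9 FPKM in BM-MSC replicates 1, 2 and 3, the last of which had the least *Ackr3*.

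*Ackr4* was most like *Serpine2* (r = 0.996), a secreted protease inhibitor, with means of 6124, 338 and 33.9 FPKM in BM-MSCs, P-SSCs and graft P-SSCs. The next were *Tcn2* (0.991), the plasma carrier of vitamin B12, *Lrpap1* (0.987), a chaperone of lipoprotein receptors, *Gpr108* (0.984), and *Lpl* (0.983), lipoprotein lipase. *Lpl* had means of 745, 123 and 15.1 FPKM. Like *Ackr4*, *Serpine2* and *Lpl* had their highest mean in BM-MSCs and their lowest in graft P-SSCs. The lowest r with *Ackr4* were those of *S100a4* (-0.987), *Vim* (-0.983), the intermediate filament vimentin, and *Il13ra1* (-0.979), and *Vim* had means of 448, 1663 and 3131 FPKM in the same order of groups. An r over 0.9 was reached by 63 genes for *Ackr4* and by 26 for *Ackr3*.

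**Figure D5:**
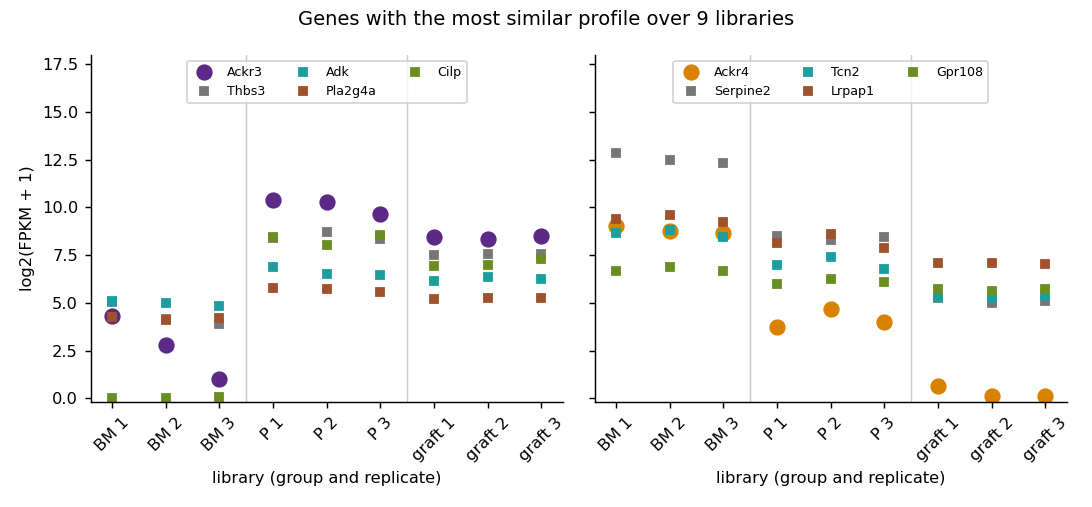
log2(FPKM + 1) in each of the 9 libraries for Ackr3 (left) and Ackr4 (right), shown as large circles, and for the 4 genes with the highest Pearson r with each, shown as squares; replicates are numbered and have no order. The genes beside Ackr3 are highest in P-SSCs and those beside Ackr4 in BM-MSCs.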

How the data were processed

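RNA was sequenced from 9 libraries of sorted mouse cells, 3 per group. Some samples were pools of mice, and periosteal tissue had a longer digestion than marrow, so tissue and digestion cannot be told apart. The deposited values are FPKM per gene, without further scaling between libraries. The submitters' processing notes name CASAVA, fastp, STAR 2.6.1d, featureCounts 1.5.0-p3 and GRCm38. The authors used DESeq2 for their own comparisons.

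Of 8329 genes, 99.87% matched GENCODE vM21 by identifier. With the mean transcript length of each gene, 94.75% of 22664 values above 0 were whole fragments within 0.01, which gave the library totals (16890241 to 21315438) and the fragments behind each value. FPKM were changed to log2(FPKM + 1), which understates changes of low genes. The 1948 genes with at least 1 FPKM in at least 3 of 9 libraries entered 1 limma fit (limma 3.58.1, R 4.3.3, eBayes with trend) of all groups. Calls were made under an adjusted p of 0.05, with Benjamini-Hochberg adjustment over all 1948. The fit was tested on simulated data. Alternatives were the pseudocount, filter, scaling, trend, libraries fitted, replicate block, each library left out and, added after the data were seen, voom on the recovered fragments (1831 genes) and all alternatives for the chemokine and marker genes and the ratios of means with 1 library left out.

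The members and gene lists were chosen with earlier results of these data known. The rule named the 2 receptors, listed genes whose mean reached 10 FPKM in any group (at most 5 a list), other atypical receptors, ligands of either receptor, and the 5 highest and 3 lowest r with each, of which 1 result is not reported here. Of the marker lists, none of the genes for endothelium, osteoblast, muscle or the kept sort markers was analysed here, and the 1 keratinocyte gene was at most 0.0468 FPKM. Erythroid and lymphatic lists rested on 1 gene each. Whether counting used the strand is not given in the sources used here.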

Additional observations from a re-analysis of the deposited data

How the results depend on the processing

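*Ackr4* kept its direction and call between graft P-SSCs and P-SSCs in all 17 alternatives, with adjusted p of 7.27e-06 to 0.000747 (limma). Its value was -5.85 with a pseudocount of 0.1, -6.51 with voom, and -4.04 to -3.56 with 1 library left out. *Ackr3* kept its direction, with adjusted p of 0.00231 to 0.178 (limma). Its limma fit passed the threshold with median of ratios scaling (-2.01, adjusted p = 0.0418), with only the libraries of the groups compared (-1.68, adjusted p = 0.00231), with voom on recovered fragments (-1.68, adjusted p = 0.00294), and without BM-MSC replicate 1 (adjusted p = 0.0163), BM-MSC replicate 3 (adjusted p = 0.00824) or P-SSC replicate 3 (adjusted p = 0.0483). Leaving out 1 library gave -1.90 to -1.55.

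Replicate numbers did not pair the samples: deviations of same-numbered graft P-SSC and P-SSC libraries had correlations of -0.26, -0.087 and -0.43. With the replicate block, *Ackr3* had an adjusted p of 0.0504 and *Ackr4* of 0.000146 (limma), and 621 genes were called in place of 665.

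With a pseudocount of 0.1, *Ackr4* in graft P-SSCs minus BM-MSCs was -10.60 in place of -8.51. Leaving out 1 library gave 4.87 to 6.53 for *Ackr3* and -8.68 to -8.40 for *Ackr4* in that contrast, and 6.55 to 8.21 and -4.95 to -4.47 in P-SSCs minus BM-MSCs. The increase of the ratio of *Ackr3* to *Ackr4* in the graft was 1.96 to 4.17 over the alternatives.

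In graft P-SSCs against P-SSCs, 665 genes were called (441 higher, 224 lower), and 428 to 871 with 1 library left out: 428 without graft P-SSC replicate 1 or 2 and 441 without replicate 3. In graft P-SSCs against BM-MSCs, 816 were called, and 523 to 1032 with 1 library left out, the lowest without graft P-SSC replicate 2 (523) or 1 (533). Fewer samples enter these fits. Median of ratios scaling gave 311 higher and 302 lower genes in the first comparison, and quantile normalization 312 and 355. In the second, 501 higher and 315 lower became 387 and 364, and 387 and 405. In P-SSCs against BM-MSCs, 472 genes were called, and 324 to 570 over the alternatives. The direction of *Ccrl2* between graft P-SSCs and P-SSCs turned under quantile normalization (-0.0715) and without P-SSC replicate 3 (-0.0805), and that of *Gng2* between P-SSCs and BM-MSCs without P-SSC replicate 2 (0.0968). That of *Csf1r* between P-SSCs and BM-MSCs turned with a pseudocount of 0.1 (0.293) and without BM-MSC replicate 1 (0.417). With 1 library left out, the 3 genes ranged from -0.0805 to 0.65, from -1.05 to 0.0968 and from -0.522 to 0.417. None was called in that comparison under any alternative, and the cause was not tested.

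The 30 graft fragments of *Ackr4* limit how closely its ratio can be given. The counting interval of graft replicate 1 (0.348 to 0.840 FPKM) lay above those of replicates 2 and 3 (up to 0.244 and 0.218 FPKM). These intervals take each fragment as a separate count. Reads carried no molecular identifiers, so the intervals cannot show whether these libraries differed by more than counting error. Without replicate 1, the ratio of the P-SSC and graft means was 192 in place of 70.2, and without replicate 3 it was 52.1.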
